A study of Mus musculus with 6 samples.

Results

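The 6 Ets family genes described here, Spib, Spi1, Ets1, Fli1, Elf1 and Etv6, were taken as a list of genes known to act in B cells, of 21887 mouse protein-coding genes in the RefSeq gene table. Each locus was the gene span and 2 kb on each side in the genome build GRCm38. A cytosine in a CpG dinucleotide was used where it was covered 10 or more times in all 6 libraries. The 6 loci held 657 such cytosines, of 1457048 in the whole genome, and 49 tiles of 1 kb with at least 3 of them, of 108943 such tiles. A further 180 cytosines of these loci were listed in some libraries only and were left out.

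The study compared DNA methylation in naive B cells from the spleens of C57BL/6 mice, 3 libraries with the genotype TET2 Knock-Out (KO) and 3 with the genotype Wild-Type (WT). TET2 is an enzyme that oxidises 5-methylcytosine, a step in the removal of DNA methylation. The assay, enhanced reduced representation bisulfite sequencing, reads cytosines near restriction sites, and both 5-methylcytosine and 5-hydroxymethylcytosine are read as C. The sources used here do not give age, sex, the knockout allele, the cells in which it was deleted, or how the B cells were purified. The design text names germinal centre B cells, whereas the sample labels name naive B cells, and the labels were followed. The labels do not say that the libraries of a genotype came from separate mice, so the spread behind the p-values may in part be technical.

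Ets family factors share a DNA-binding domain that recognises a GGAA core. PU.1, encoded by Spi1, is required early in lymphoid and myeloid development, and its relative Spi-B, encoded by Spib, acts with it in mature B cells. Ets1 is abundant in resting lymphocytes and restrains plasma cell differentiation. Fli1 and Elf1 are broadly expressed in blood cells, and Etv6 (also called TEL) is a repressor needed by blood stem cells.

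Each library listed 1551481 to 1626375 cytosines with a median coverage of 92 to 110 reads and 168455105 to 207065050 reads in all. At the 6 loci the median coverage ranged from 48 to 156 reads per library. Tet2 was searched for cytosines listed in all WT libraries and in 0 KO libraries. It held 6, covered by 28 to 71 reads in WT. The member loci held 0 of this kind among 837 cytosines listed in any library, and the rest of the genome was not counted. Among the genome's cytosines at 30 to 70% (mean of the 6 libraries), methylation was 52.6% ± 0.673 in KO and 49.9% ± 1.65 in WT (SD, n = 3 each), with WT 1 the lowest library at 48.0%. As a check of the cell type, 1 kb on each side of a gene end was read where it held at least 3 cytosines. Either end by coordinate was taken, without regard to which is the start. Of the B cell genes, 4 of 6 had such a window. Levels ran from 1.51% in KO and 1.02% in WT at Cd79b to 85.3% and 82.4% at Blk. Of the T cell genes, 3 of 7 had one, from 0.390 to 95.2% in KO and 0.456 to 95.2% in WT, the lowest at the lower end of Cd4. No window of the myeloid or NK cell genes was measured. The 5 windows of erythroid genes ranged from 0.561 to 96.7% in KO and 0.567 to 97.9% in WT, the lowest at Klf1. The ranges of these lists overlapped, so the levels do not tell the cell types apart. The KO and WT libraries did not overlap in 3 of the 13 windows: Cd22 (38.5% in KO, 30% in WT), the lower end of Zap70 (93.4% and 82.6%) and, the other way, the upper end of Slc4a1 (35.5% and 48.5%). The share of all gene-end windows without overlap is not given here, so this count has no background beside it. No 1 kb tile of any of these marker lists passed the test used below, and the part of other cell types in the values was not tested.

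The loci fell into 2 kinds by their measured cytosines. At Elf1, 94.9% of 197 cytosines were below 10% methylation (mean of the 6 libraries), at Fli1 87.4% of 119, and at Ets1 80.7% of 88. At Spib this share was 46.2% of 26, at Etv6 40.7% of 199 and at Spi1 35.7% of 28. Over all members it was 70.8%, against 60.6% of all cytosines, and 18.0% of members' cytosines were at 90% or above. Most of the cytosines below 10% lay in 7 stretches, at a gene end or inside the gene.

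**Figure D1:**
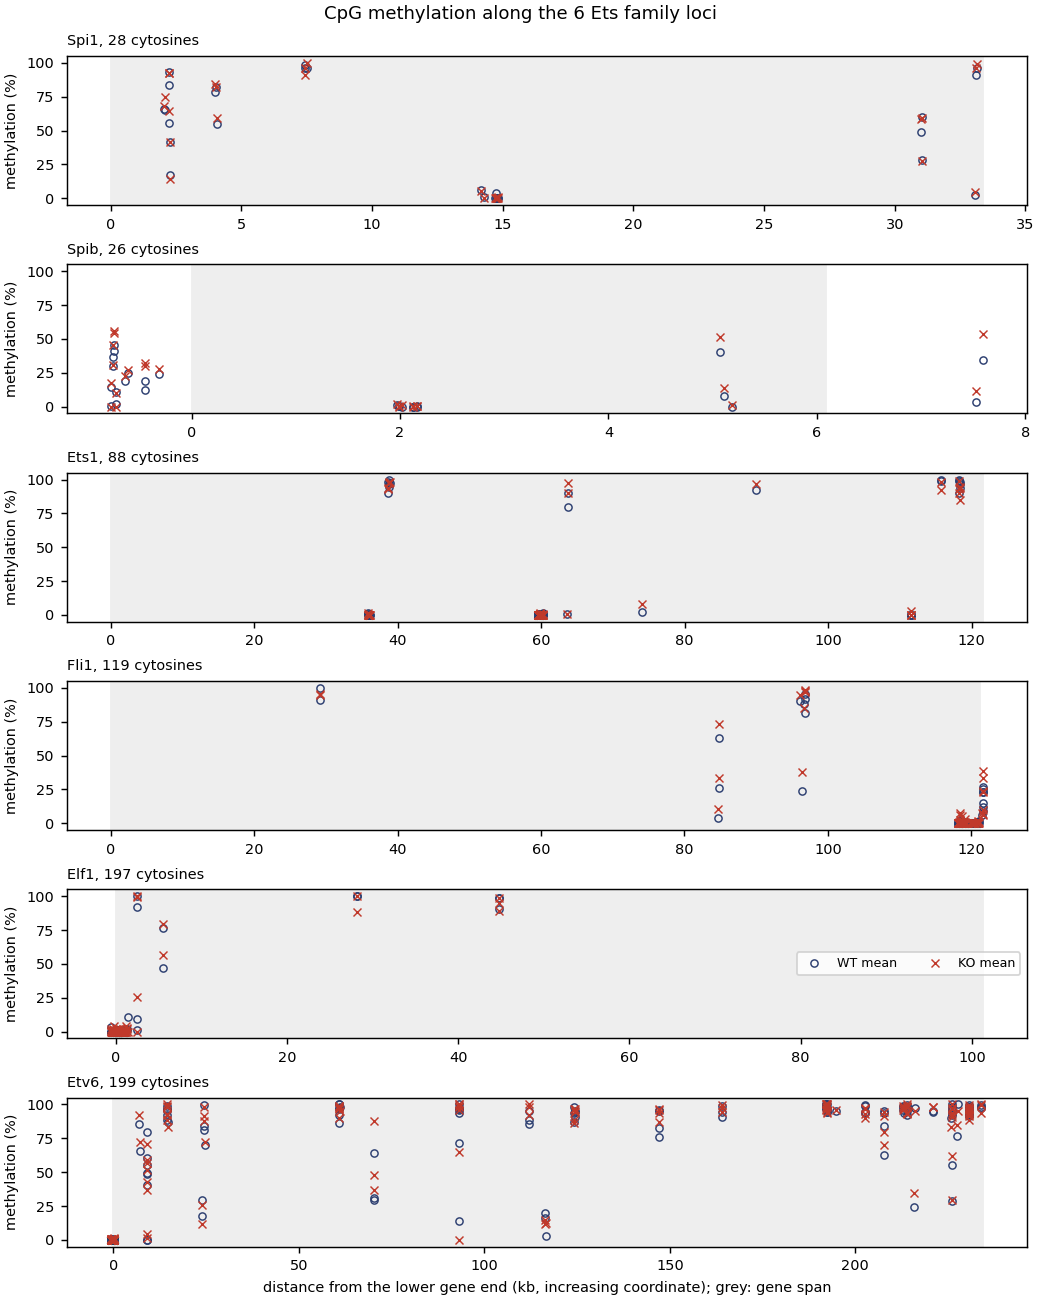
Mean CpG methylation (%) of the KO (crosses) and WT (open circles) libraries at each of the 657 cytosines, against distance from the lower gene end in kb, with the gene span in grey. Elf1, Etv6 and Fli1 show dense unmethylated cytosines at 1 gene end, Ets1 and Spi1 show them inside the gene, and the Etv6 body is mostly near 100%.

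At Elf1, on chromosome 14 (79481174 to 79582491, plus strand), 186 cytosines from 79480600 to 79482672 formed an unmethylated stretch of 2073 bp. It lay across the start at the lower gene end. It averaged 0.185% ± 0.0609 in KO and 0.220% ± 0.0389 in WT (SD, n = 3 each), with overlapping libraries. The stretch also overlaps the neighbouring gene Wbp4, which is on the minus strand in the RefSeq promoter table and starts there. At Etv6, on chromosome 6 (134035700 to 134270158, plus strand), 77 cytosines over 965 bp at the start averaged 0.0825% in KO and 0.0593% in WT. This stretch, from 134034940 to 134035904, also overlaps the upper end of the neighbouring gene Gm46977 (134018140 to 134035312). At Fli1, on chromosome 9 (32422204 to 32543432), the stretch was the longest of the 7, with 101 cytosines over 3390 bp across the upper gene end. It averaged 0.435% in KO and 0.314% in WT.

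Inside Ets1, on chromosome 9 (32636241 to 32757820), unmethylated stretches of 17 and 48 cytosines began 35826 and 59548 bp above the lower gene end. Their means were at most 0.166% in either genotype. Inside Spi1, on chromosome 2 (91082374 to 91115759), 9 cytosines over 665 bp averaged 0.652% in KO and 1.34% in WT. Inside Spib, on chromosome 7 (44525995 to 44532087, minus strand), 8 cytosines over 195 bp averaged 0.528% in KO and 0.312% in WT. In all 7 stretches the KO and WT libraries overlapped. The gene table used here gives gene spans without exons or introns, and the strand of Spi1, Ets1 and Fli1 was not used here.

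The sequences before the starts of Elf1, Etv6 and Spib are shown because they differ in how much of the start the assay could read. They come from RefSeq (GRCm38.p6), which had entries for 3 of the 6 members, and are printed 5′ to 3′ on the gene's strand. CpG dinucleotides with at least 1 cytosine measured in all 6 libraries are in capitals.
Elf1, chr14:79480944-79481173, plus strand: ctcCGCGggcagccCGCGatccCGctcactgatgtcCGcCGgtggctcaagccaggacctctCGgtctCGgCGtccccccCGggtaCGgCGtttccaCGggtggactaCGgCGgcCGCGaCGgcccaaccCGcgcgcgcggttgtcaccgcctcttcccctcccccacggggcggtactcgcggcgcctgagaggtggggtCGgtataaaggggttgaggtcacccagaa
Etv6, chr6:134035450-134035699, plus strand: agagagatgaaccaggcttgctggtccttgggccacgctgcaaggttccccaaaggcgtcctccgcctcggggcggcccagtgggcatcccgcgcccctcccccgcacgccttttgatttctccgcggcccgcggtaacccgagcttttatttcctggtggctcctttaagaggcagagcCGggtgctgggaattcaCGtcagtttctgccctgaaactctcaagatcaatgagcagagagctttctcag
Spib, chr7:44532088-44532321, minus strand: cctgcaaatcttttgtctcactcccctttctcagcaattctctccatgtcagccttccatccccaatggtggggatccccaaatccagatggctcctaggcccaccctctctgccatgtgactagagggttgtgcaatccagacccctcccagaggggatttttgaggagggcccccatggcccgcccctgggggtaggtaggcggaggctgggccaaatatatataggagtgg

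The Elf1 sequence holds 31 CpG dinucleotides, of which 21 were measured, and the Etv6 sequence holds 16, of which 2 were measured. The Spib sequence holds 2, of which 0 were measured, so the methylation of the Spib start itself was not read. Over the whole 300 bp promoter windows, the Elf1 window shown has 43 CpG dinucleotides, more than 97.4% of the 32851 mouse promoters in that table. Etv6 has more than 68.6% and Spib more than 14.1%. A second Elf1 window in that table, chr14:79515424-79515723, lies inside the gene span. It has 3 CpG dinucleotides, more than 23.3% of promoters, and 0 measured cytosines, so that start was not read. The highest mean of a measured cytosine in the Elf1 window shown was 3.92% in KO and 1.39% in WT. In the Etv6 window both measured cytosines had 0% in KO and at most 0.290% in WT. The letters CCGG are the cut site of the enzyme MspI that such libraries commonly use. They occur 3 times in the Elf1 window shown and 1 time in the second Elf1 window. They occur 1 time in the Etv6 window, 0 times in that of Spib, and in 52.8% of all promoters. The letters CCGGAA or their reverse complement TTCCGG, an Ets-type motif that contains a CpG, occur in 14.9% of all promoters and in 0 of these windows. AGGAAG or CTTCCT, an Ets-type motif without a CpG, occurs in 35.4% of all promoters and 1 time in the Etv6 window. These matches describe letters and not binding.

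Methylation of 1 kb tiles was then compared between KO and WT by a quasi-binomial model of C and T reads, moderated by limma and fitted to all 108802 tiles that held both bases. A tile was called at a Benjamini-Hochberg adjusted p below 0.05 and a difference of at least 10 percentage points. Of the 49 member tiles 0 were called, against 122 of all tiles higher in KO (0.112%) and 0 lower (0%). The smallest adjusted p among member tiles was 0.527. At an unadjusted p below 0.05, 5 member tiles were higher in KO and 0 lower, against 5.74% and 1.46% of all tiles. The same counts were 2 and 0 with edgeR (4.17% and 1.42% of all tiles), 3 and 0 with limma on log ratios (5.06% and 1.51%), and 4 and 0 with each cytosine weighted equally (5.39% and 2.03%). The difference was above 0 in 33 member tiles (59.8% of all tiles), and its median was 0.184 points beside 0.176 over all tiles. Every KO library was above every WT library in 7 member tiles (8.35% of all tiles) and below them in 1 (3.36%). That 1 tile lay in the Ets1 stretch of unmethylated cytosines, at 0.0163% in KO and 0.0789% in WT.

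The member tiles were then read by methylation level. Of 16 member tiles at 10 to 90% methylation, 14 were higher in KO and 2 lower, where 62.9% of the 29505 tiles at that level were higher. Their median difference was 4.70 points, beside 1.08 over all such tiles. In 5 of the 16, every KO library was above every WT library, against 11.3% of all such tiles, and in 0 every KO library was below (3.05%). At an unadjusted p below 0.05, 4 of the 16 were higher and 0 lower, against 9.86% and 1.87% of all such tiles. With each cytosine weighted equally, 2 of the 16 were separated in this way, against 11.9%. The 16 member tiles under 10% had a median difference of 0.0147 points, beside 0.0499 over all such tiles. The 17 at 90% or above had one of 0.0200 points, beside 0.320. Among those 17, the Etv6 tiles from 134147001 and 134182001 differed by 5.75 and 5.32 points. The 16 tiles at 10 to 90% share libraries and genes and were not tested as a group.

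**Figure D2:**
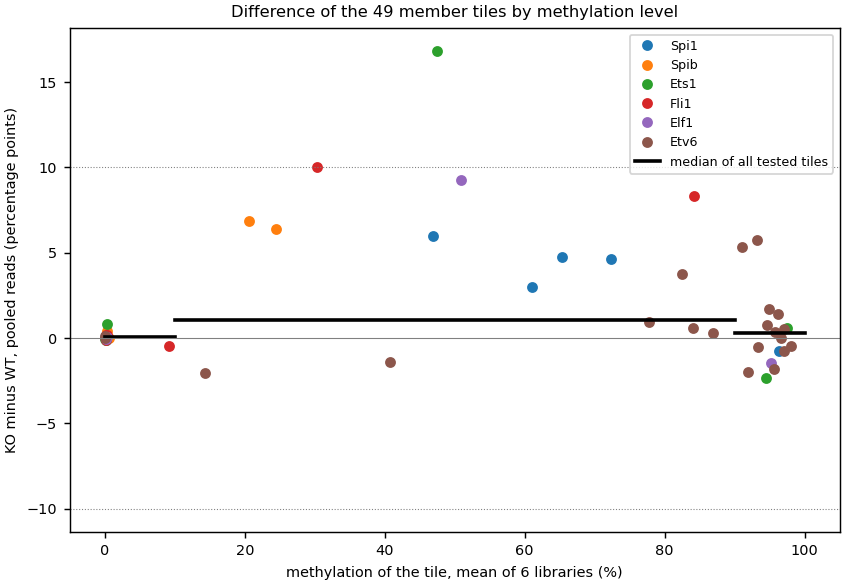
KO minus WT methylation (percentage points, pooled reads) of each of the 49 member tiles, against the tile's mean level over 6 libraries (%), coloured by gene. Black lines give the median of all tested tiles at that level, 1.08 points between 10 and 90%, and dotted lines mark 10 points. Tiles at either extreme lie mostly near 0, apart from Etv6 tiles at 5.32 and 5.75 points, and 14 of the 16 between lie above 0.

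Spi-B is the B cell relative of PU.1, and its locus was intermediate at both flanks. The tile from 44525001 to 44526000, past the 3′ end of the gene and above the neighbouring gene Mybpc2, had 13 measured cytosines. Methylation was 27.6, 29.7 and 26.2% in KO and 17.4, 23.4 and 22.3% in WT. Every KO library lay above every WT library, and they stayed so with each cytosine weighted equally. The pooled difference was 6.39 points (adjusted p = 0.540), below the 10 points needed for a call. The window of 1 kb on each side of this gene end read the same 13 cytosines (adjusted p = 0.789). Its cytosine with the smallest p, at 44525551, read 29.2, 23.9 and 36.4% in KO and 6.25, 8.52 and 22.0% in WT (adjusted p = 0.551).

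A second Spib tile, from 44531001 to 44532000 near the start of the gene, had 3 cytosines. It read 23.2, 25.6 and 22.8% in KO and 23.7, 16.6 and 11.8% in WT, a difference of 6.86 points (adjusted p = 0.709). WT 1 lay within the KO range there. Upstream of the start, in the span of the neighbouring gene Pold1, 2 cytosines in the tile from 44533001 read 32.3, 37.9 and 27.8% in KO and 8.85, 17.3 and 26.1% in WT. That tile had too few cytosines for the fit of tiles with at least 3, and with the minimum set to 1 its adjusted p was 0.411. Within Spib, the remaining pair of tiles, which cover the unmethylated stretch, had differences with a median of 0.215 points.

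**Figure D3:**
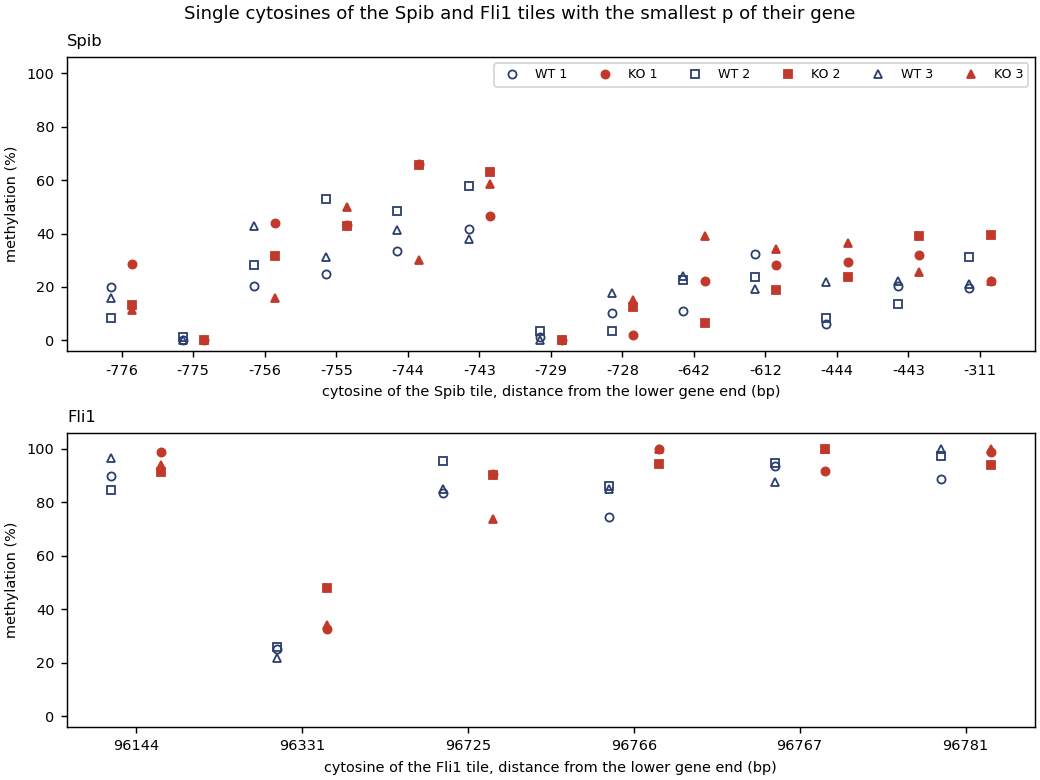
Methylation (%) of single cytosines in each library for the Spib tile past the 3′ end (top, 13 cytosines) and the Fli1 tile with the smallest p (bottom, 6 cytosines), by distance from the lower gene end in bp. Filled red symbols are KO 1 to 3 and open blue symbols are WT 1 to 3, and single cytosines overlap more than the tile values do.

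At Fli1 the tiles with the smallest p lay inside the gene, away from its unmethylated end. In the tile from 32518001 to 32519000, 6 cytosines read 88.4, 87.1 and 88.9% in KO and 78.1, 87.0 and 75.2% in WT. The groups were separate, but WT 2 lay just under the lowest KO library. The difference was 8.35 points, with the smallest adjusted p of the 49 member tiles (0.527), 6.53 points with cytosines weighted equally and 5.16 points without WT 3. Its cytosine at 32518970 read 100, 94.2 and 100% in KO and 74.3, 86.0 and 84.9% in WT (adjusted p = 0.548).

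A second Fli1 tile, from 32506001 to 32507000, held 3 cytosines and read 34.5, 38.0 and 33.9% in KO and 20.2, 27.7 and 27.7% in WT. These groups were separate for pooled reads, with a difference of 10 points (adjusted p = 0.653). With cytosines weighted equally WT 2 reached 37.5%, above the lowest KO library at 36.6%, so the groups overlapped. Across the upper gene end, the tile from 32543001 showed overlapping groups: it read 8.87, 7.75 and 9.77% in KO and 6.59, 10.6 and 11% in WT. The window at this end, with 22 cytosines, had an adjusted p of 0.968.

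Ets1 had nothing between 10 and 70% among its 88 cytosines. Of these, 71 were below 10%, 1 was at 70 to 90% and 16 were at 90% or above. The tile from 32699001 to 32700000 nevertheless read 45.8, 59.2 and 61.8% in KO and 39.8, 36.0 and 42.5% in WT, the largest difference of any member tile at 16.8 points (adjusted p = 0.643). It mixed 1 cytosine near 0% with a pair at high methylation, and the near-0 cytosine took 31, 60 and 32 reads in KO and 63, 30 and 102 in WT. With each cytosine weighted equally the difference was 6.16 points and the groups overlapped. The 6 cytosines of the tile from 32754001 lay the other way, at 95.8, 92.0 and 91.1% in KO and 95.5, 98.4 and 94.1% in WT, a difference of -2.36 points (adjusted p = 0.917). It ranged from -3.99 points without KO 1 to -1.34 without WT 2. There the cytosine at 32754412 read 84.8, 88.9 and 97.4% in KO and 100% in all WT libraries, with an adjusted p of 0.568.

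At Spi1, which encodes PU.1, 4 of 6 tiles were intermediate, all 4 were higher in KO in pooled reads and 0 were separated. The tile with the smallest p, from 91086001 to 91087000, read 69.3, 75.7 and 77.2% in KO and 64.4, 68.1 and 79.6% in WT, a difference of 4.66 points (adjusted p = 0.887), which was 2.97 points without KO 3, 1.16 without WT 1 and 8.65 without WT 3. The tile with the largest difference, from 91113001 and inside the gene, read 39.3, 52.6 and 53.2% in KO and 38.6, 54.5 and 43.3% in WT. WT 2 was the highest of the 6 there, and the 6.00 points had an adjusted p of 0.902. This difference was 2.24 points without WT 1, 3.55 without KO 2, 9.30 without KO 1 and 2.76 with cytosines weighted equally. The upper end window had 3 cytosines and read 63.8, 66.9 and 71.1% in KO and 61.5, 61.4 and 67.5% in WT. The cytosine at 91089879 read 100% in all KO libraries and 98.4, 95.9 and 93.5% in WT (adjusted p = 0.551).

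At Elf1 the 1 intermediate tile, from 79483001 to 79484000, read 51.1, 68.5 and 50% in KO and 46.5, 46.2 and 43.4% in WT (adjusted p = 0.871). The KO libraries lay above the WT libraries, KO 2 far above the rest. The difference was 9.26 points for pooled reads, 5.50 without KO 2, and 5.61 with cytosines weighted equally, where the groups overlapped. The high value of KO 2 came from 1 of its 4 cytosines, at 79483727, which read 2.94, 73.7 and 0% in KO and 5.56, 10.7 and 11.1% in WT. Its partner on the other strand read 100% in all 6 libraries. Pairs whose strands differ by over 50 points (mean of 6 libraries) made up 1.92% of all CpG pairs, and without them this tile had too few cytosines to test. Within the unmethylated stretch, the cytosine at 79482015 read 2.15, 2.65 and 2.01% in KO and 0% in all WT libraries (adjusted p = 0.551).

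Etv6 is the longest of the loci, and most of the cytosines measured in its body were highly methylated. Of its 21 tiles, the one with the smallest p, from 134182001 to 134183000 in the gene body, read 94.1, 91.5 and 95.1% in KO and 91.4, 87.7 and 86.4% in WT. Its libraries were just separate under both weightings, with a difference of 5.32 points (adjusted p = 0.640). The tile from 134147001 was also separate under both, at 100, 94.7 and 95.6% in KO and 85.7, 89.7 and 93.1% in WT (adjusted p = 0.876), a difference of 5.75 points that was 8.73 without WT 3. The tile from 134152001 lay the other way, at 12.8, 15 and 13% in KO and 16, 11.8 and 17.2% in WT (adjusted p = 0.972). Its difference of -2.04 points was -3.08 without WT 2 and -0.0285 without WT 3.

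The single cytosine with the smallest p of all 6 loci was in the Etv6 body, at 134106058. It read 84.5, 86.7 and 91.8% in KO and 62.5, 67.5 and 62.4% in WT, on 40 to 93 reads. The groups did not overlap, and the adjusted p over all single cytosines was 0.547. Of the 384 member cytosines with both bases, 0 were called, against 8 of all cytosines higher in KO (0.000731%) and 0 lower (0%). At an unadjusted p below 0.05, 23 were higher and 11 lower, against 5.31% and 3.17% of all single cytosines. Of the 6 gene-end windows measured, 0 were called (0.00569% of all windows higher, 0% lower). At an unadjusted p below 0.05, 1 window was higher and 0 lower, against 4.95% and 0.876% of all windows, and edgeR and limma on log ratios gave 0 and 0 (3.92% and 4.46% of all windows higher).

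**Figure D4:**
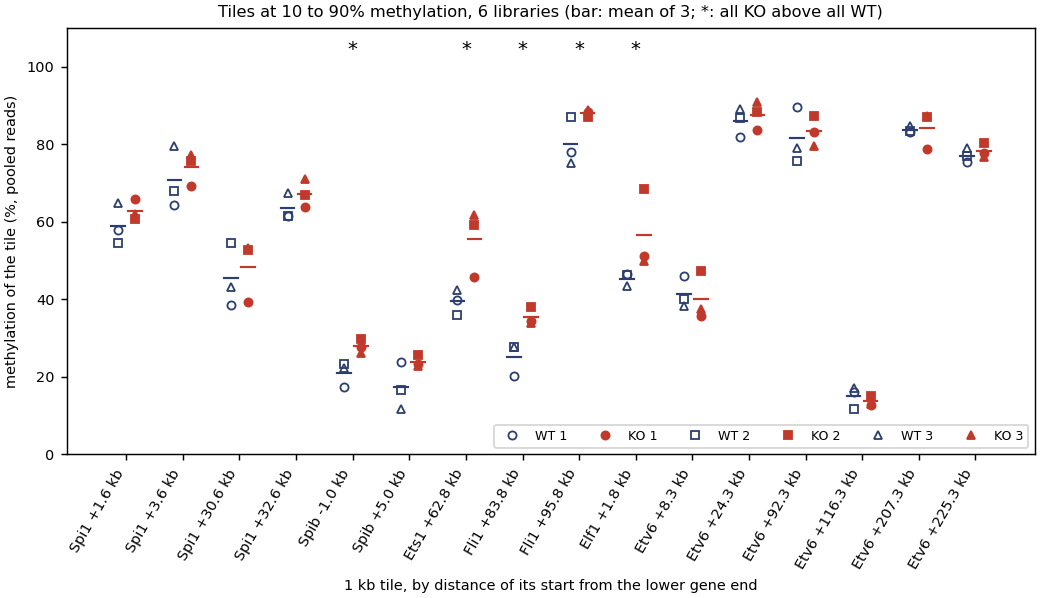
Methylation (%, pooled reads) in each library for the 16 member tiles at 10 to 90%, ordered by gene and by distance of the tile from the lower gene end, with bars for the mean of 3 libraries and asterisks where all KO lie above all WT. The 5 asterisks fall on 1 tile each of Spib, Ets1 and Elf1 and on both intermediate tiles of Fli1.

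The level of a whole locus depended on how reads were weighted. With each cytosine weighted equally, the order in KO was Etv6 (51.9% ± 0.834), Spi1 (46.9% ± 1.05), Spib (18.8% ± 1.14), Ets1 (18.5% ± 0.3), Fli1 (8.43% ± 0.0629) and Elf1 (4.40% ± 0.280; SD, n = 3 each). In WT the order was Etv6 (51.3% ± 0.495), Spi1 (45.3% ± 2.29), Ets1 (18.5% ± 0.219), Spib (14.2% ± 1.42), Fli1 (7.74% ± 0.582) and Elf1 (4.33% ± 0.151). Neighbours in these orders were further apart than their SDs, except Spib and Ets1 in KO. Which cytosines the assay samples sets these levels, so they compare loci only as measured.

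Between genotypes, Spib differed by 4.62 points and Fli1 by 0.695 points on this scale, and only these 2 of the 6 loci had every KO library above every WT library (14.4% of all loci), with 0 the other way (2.14%). At Spib the libraries read 19.3, 19.6 and 17.5% in KO and 12.5, 15 and 15.1% in WT. At Fli1 they read 8.39, 8.40 and 8.51% in KO and 7.07, 8.06 and 8.09% in WT. The adjusted p of limma on these values was 0.264 for Spib and 0.552 for Fli1. With reads pooled over cytosines, 4 of 6 loci were separated (Spib, Fli1, Elf1 and Etv6; 24.9% of all loci), with 0 the other way (1.16%). Here 5 of 6 differences were above 0, against 81% of all loci. Of the 6 loci 0 were called, as were 0 of all 16435 loci (0% higher, 0% lower). At an unadjusted p below 0.05, 3 were higher and 0 lower in that model, against 21.9% and 0.189% of all loci. The number higher was 4 with edgeR (19.1% of all loci), 3 with limma on log ratios (16.8%) and 1 with each cytosine weighted equally (9.36%).

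Etv6 shows how far the weighting reached. Its pooled level was 41.0, 40.3 and 42.3% in KO and 27.7, 35.1 and 37.3% in WT, a difference of 8.04 points (adjusted p = 0.139), against 0.579 points with equal weights and overlapping libraries. Without WT 1, the lowest library, the pooled difference was 5.02 points. The share of its reads that fell on cytosines below 10% methylation was 52.5, 54.9 and 52.7% in KO and 68.3, 60.1 and 57.5% in WT, so a smaller share of KO reads fell on these cytosines, most of which lie at the start. At Fli1 this share was 90.5% in KO and 92.7% in WT, and at Elf1 98.0% and 98.6%, with all KO below all WT at both. The KO and WT libraries overlapped at Spib, Spi1 and Ets1. The read share was computed for the member loci alone, so whether other loci differ in the same way was not tested. At Spib the read share was 57.2% in each genotype, and the Spib difference was 4.30 points pooled (adjusted p = 0.2). The pooled difference at Fli1 was 2.45 points (adjusted p = 0.130). Without WT 3 it was 2.89 points with an adjusted p of 0.0466, where 690 loci of all were called.

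**Figure D5:**
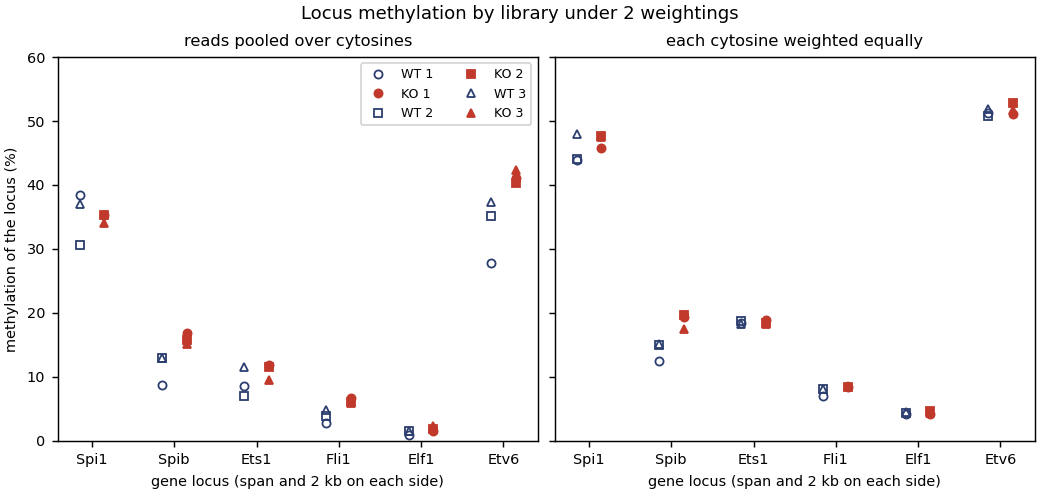
Methylation (%) of each locus in each library with reads pooled over cytosines (left) and with each cytosine weighted equally (right), filled red for KO 1 to 3 and open blue for WT 1 to 3. The gap at Etv6, 8.04 points on the left, is 0.579 points on the right, while that at Spib is 4.30 and 4.62 points.

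The loci whose level followed each member most closely over the 6 libraries, by Pearson r of equally weighted locus values among genes with at least 20 cytosines, were Tmcc2 for Spib (r = 0.999), Evl for Spi1 (0.992), Sidt2 for Ets1 (0.991), Cfap73 for Fli1 (0.998), Ptprs for Elf1 (0.995) and Nfe2 for Etv6 (0.989). Each is the highest of 13723 to 13725 genes over only 6 libraries and is given as a description.

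Among the 20 other Ets family genes, 19 had tiles, 109 in all, of which 0 were called. At an unadjusted p below 0.05, 4 were higher in KO and 0 lower, against 5.74% and 1.46% of all tiles, and the median difference was 0.266 points. The smallest p was at Erf, a repressor of the family, whose tile of 7 cytosines read 80.9, 83.0 and 71.3% in KO and 63.0, 66.2 and 68.9% in WT (12.7 points, adjusted p = 0.407). Among 16 genes known as targets or partners of PU.1, Spi-B or Ets1, 14 had tiles, 102 in all, of which 0 were called, with 11 higher and 1 lower at an unadjusted p below 0.05, against the same 5.74% and 1.46%. A tile of Irf8, which encodes a partner of PU.1, read 19.8, 16.3 and 20.3% in KO and 10.2, 12.4 and 12.8% in WT (6.84 points, adjusted p = 0.208). A tile of Grap2, which encodes an adaptor protein, read 75.5, 74.5 and 87.4% in KO and 42.4, 63.0 and 60.2% in WT (adjusted p = 0.403). In both tiles the groups were separate, and neither passed the test.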

How the data were processed

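Reads were processed with Bismark on GRCm38, per the submitters' processing notes. The sources used here do not give its version, the trimming or the handling of duplicates. Per the file headers, the authors' deposited tables give a coverage count and the percent of C and of T reads for each CpG cytosine, and cytosines below 10 reads are not listed. Percent times coverage gave whole reads, within the rounding of the deposited percent. No molecular identifiers are given, so read counts may overstate the number of molecules. Errors rest on the spread between libraries, moderated over features and not allowed below that of binomial read sampling.

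Reads of C and T were summed per 1 kb tile (at least 3 cytosines), gene-end window (1 kb on each side, at least 3), locus (at least 5) and single cytosine. A quasi-binomial model with 1 level per genotype, overdispersion moderated by limma 3.58.1 and held at 1 or above, was fitted to all features in R 4.3.3. Calls needed an adjusted p (Benjamini-Hochberg, over all features) below 0.05 and 10 points, or for loci the adjusted p alone. A difference is the pooled KO minus the pooled WT percent. Tiles with no C or no T read were not tested. On simulated tiles drawn from these libraries, 10% of tiles raised by 10 points were called, 66% at 20, 98% at 30 and 90% at 35, each of 50, among 108802 tiles. The raised tiles came from a narrower range of levels than the intermediate tiles above. A rise of 10 points gave a median estimate of 9.13, itself below the 10 points needed for a call.

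The members and gene lists were chosen with earlier results of these data known. Per member, the tile with the smallest p, the largest difference each way, the gene-end windows, the locus and the cytosine with the smallest p were named, as was the locus with the highest r. Per other list, the tiles with the smallest p could be named. Other tiles and cytosines named (the Spib pair near Pold1, the Ets1 tile below WT, the Elf1 strand pair) were chosen after their values were seen. Alternatives were a higher minimum coverage, removal of the highest 0.1% of coverage, autosomes alone, other tile bounds and cytosine minimums, equal weights, edgeR 4.0.16, limma on log2 ratios with a prior count of 2, no moderation, the replicate number as a block, and each library left out.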

Additional observations from a re-analysis of the deposited data

How the results depend on the processing

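No member tile, gene-end window or cytosine was called under any alternative run. A pooled difference below 10 points could not be called at any p, and 14 of the 16 intermediate member tiles differed by less. In simulated tiles, 10% of those raised by 10 points were called, where the median estimate of 9.13 points was also below that bound. Over the whole genome, 122 called tiles became 0 with edgeR, limma on log ratios, equal weights, no moderation, or the replicate block, 52 to 119 with 1 library left out (52 without KO 2 or without WT 1, 79 without WT 3), and 212 without strand-discordant pairs, an alternative chosen after seeing the data. Deviations of same-numbered KO and WT libraries correlated at 0.0481, -0.0293 and -0.00736 over 29505 tiles, and those of differently numbered libraries at -0.0391 to 0.0533. Same-numbered libraries thus did not stand apart. Deviations also hold read-sampling noise, so these values do not decide whether the libraries were paired. The replicate block gave 0 called member tiles. At an unadjusted p below 0.05 it gave 9 of 384 member cytosines higher and 2 lower, against 2.25% and 1.26% of all cytosines. The median member difference was 0.123 points at 20 reads or more, 0.0724 and 0.389 with at least 5 and 1 cytosines per tile, and 0.0415 to 0.229 with 1 library left out. The intermediate tiles are a grouping by level chosen with these data known. Of these, 5 of 6 were higher with at least 5 cytosines, and 11 to 15 of 16 with 1 library left out. With equal weights 13 of 16 were higher, and without strand-discordant pairs 12 of 15. Separated intermediate tiles numbered 3 of 13 at 20 reads or more and 2 of 16 with equal weights. They numbered 2 of 6 and 8 of 24 with at least 5 and 1 cytosines. With 1 library left out they numbered 5 to 8 of 16 (8 without WT 3), where 3 libraries against 2 separate more easily. Apart from the equal-weight share of separated tiles, the shares of all tiles for these counts are not given here. Member loci called were 0 to 1 with 1 library left out, the 1 being Fli1 without WT 3. The sign turned for 4 small differences: the Spi1 tile from 91089001 (-1.61 to 0.288 points with 1 library left out), the Etv6 tile from 134152001 (0.363 with equal weights), the Fli1 tile from 32543001 (0.525 with equal weights, -1.90 to 0.262 with 1 library left out) and the Spi1 locus (1.65 with equal weights, -2.86 to 1.1 with 1 library left out). Unless the alternative's own construction shows it, the cause was not tested.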
